A study of Homo sapiens with 21 samples.

Results

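Estrogen receptor alpha, encoded by ESR1, is a hormone-activated transcription factor of luminal breast cells. When bound by estrogen it occupies enhancers and promoters, often together with FOXA1 and GATA3, and recruits coactivators that raise transcription of a characteristic set of genes. The levels of those genes are widely read as an account of receptor activity in breast tumours. In cells with amplified HER2, the receptor tyrosine kinase blocked by trastuzumab and pertuzumab, the HER2 and estrogen receptor pathways are known to influence each other. The genes described here are 10 such targets, GREB1, CTSD, STC2, IL6ST, TFF1, TFF3, MYB, PDZK1, CA12 and SIAH2, chosen by symbol from the 37355 genes of a count table. Each symbol had 1 row.

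The RNA libraries came from BT474, a human breast cancer line with amplified HER2, and from antibody-resistant cells derived from it, in 7 groups of 3. In the first, parental cells received trastuzumab at 10 µg/mL for 3 days. In the second they received trastuzumab and pertuzumab at 10 µg/mL each for 3 days. BT-TR1 and BT-TR2 are pools of trastuzumab-resistant cells, and BT-TPR1 and BT-TPR2 are pools resistant to trastuzumab plus pertuzumab, and no pool received antibody in the 7 days before harvest. The last group was untreated BT474. All groups were grown in RPMI-1640 with fetal bovine serum, and the labels name no added estrogen or antiestrogen. Each resistance class was represented by 2 pools, so a statement on resistance rests on 2 pools, however many libraries each has. The labels do not say that the 3 libraries of a group came from separate cultures, so each p-value measures only the spread between these libraries.

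Library totals ran from 7939270 to 21746391 counts, and all 10 genes passed the filter on low counts that left 17650 genes to test. The smallest were those of BT-TR1 (13432287, 11970803 and 7939270), against 20287901, 19516112 and 21746391 in untreated cells. Mitochondrial genes held 13.7% to 33.3% of the counts, most in trastuzumab replicate 1. The part of depth and of this share in the results was not tested. Replicate 1 of each group had the most positive relation to GC content. Over the tested genes, the GC content of a gene and its deviation from the group mean were correlated in those libraries (r between 0.313 and 0.627), against -0.537 to 0.0828 in replicates 2 and 3. Deviations from a mean of 3 sum to 0, so these values depend on each other. Replicate 3 was also far out in BT-TR1 (r = -0.490) and BT-TPR2 (r = -0.520). With both antibodies it lay further from 0 than replicate 1 (-0.515 against 0.395). The BT-TR1 change against untreated cells also followed GC content across genes (r = -0.478), and so did the difference of BT-TR2 from BT-TR1 (r = 0.629). Genes are not independent replicates, so these correlations are descriptions. Values of the 10 genes are therefore also given after correcting every library for GC content or with replicates 2 and 3 alone, where these changed a call or moved a called change by more than 1.5 times. The same holds for replicate number as a block in the 7 comparisons in which same-numbered libraries deviated together. In the other 2 (both antibodies against untreated cells and BT-TR2 against BT-TR1) they did not all do so, and the block values of single genes are given with the other alternatives. Luminal markers summed to 7519 to 15373 CPM over the 21 libraries, and 7 of the 7 marker genes were tested. Markers of other types were low: basal 1.63 to 7.49, fibroblast 16.4 to 46.6, leukocyte 0.192 to 1.29 and endothelial 5.45 to 18.4 CPM. No list was at 0 in any library. The basal sum was lower in the pools (1.63 to 4.10 CPM) than in untreated cells (6.21 to 7.49 CPM). The luminal sum was 10859 to 15373 CPM in untreated cells. Without overlap it was lower with trastuzumab (8801 to 10481), with both antibodies (7519 to 10182) and in BT-TR1 (7805 to 10560). The other pools overlapped untreated cells. The part of these sums in the results was not tested. In RNA from whole cultures, fewer cells of a type and less RNA per cell cannot be told apart.

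Between 4 and 8 of the 10 targets were lower in each resistant pool than in untreated cells, and 2 or fewer were called after 3 days of antibody. A gene was called at a Benjamini-Hochberg adjusted p under 0.05 in edgeR's quasi-likelihood test over all tested genes. In BT-TR1 8 of 10 genes were lower and 0 higher, where 43.6% of all tested genes were called and 22.3% were lower. In BT-TR2 8 of 10 were lower and 0 higher, against 24.9% of all genes called and 12.1% lower. These counts exceed the share among all genes, and the list medians of the log2 fold change were -0.92 in BT-TR1 and -1.02 in BT-TR2, where those over all genes were within 0.01 of 0.

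In BT-TPR1 4 of 10 genes were lower and 0 higher, against 27.3% of all genes called and 14.4% lower, with a list median of -0.22. In BT-TPR2 6 of 10 were lower and 0 higher, against 31.6% called and 16% lower, with a list median of -0.53. STC2, CTSD and IL6ST fell in all 4 pools, 3 of the 10 genes, against 4.79% of all tested genes. No target passed the test on the higher side in any pool. With the replicate block, MYB alone passed on the higher side, in BT-TPR2 (0.21, adjusted p = 0.0395).

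After 3 days of trastuzumab 2 of 10 genes were called, STC2 higher and CA12 lower, against 7.48% of all tested genes, and the list median was 0.17. With both antibodies 0 of 10 genes were called by edgeR, against 12.4% of all genes, and the list median was -0.20. There, 4 of the 10 had an unadjusted p under 0.05 (GREB1, CTSD, CA12 and SIAH2). The share of all genes at that unadjusted level was not counted, so the 4 cannot be set against it. DESeq2 called 1, against 2543 of 17071 genes, and limma on the deposited transformed values 0, against 2041 of 17650. With the replicate block, the count with trastuzumab was 6 (4 higher and 2 lower, against 26.2% of all genes). With both antibodies the block gave 5 lower and 0 higher, against 32.6% of all genes, though same-numbered libraries did not all deviate together there. The plots of levels and of changes show these patterns gene by gene.

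**Figure D1:**
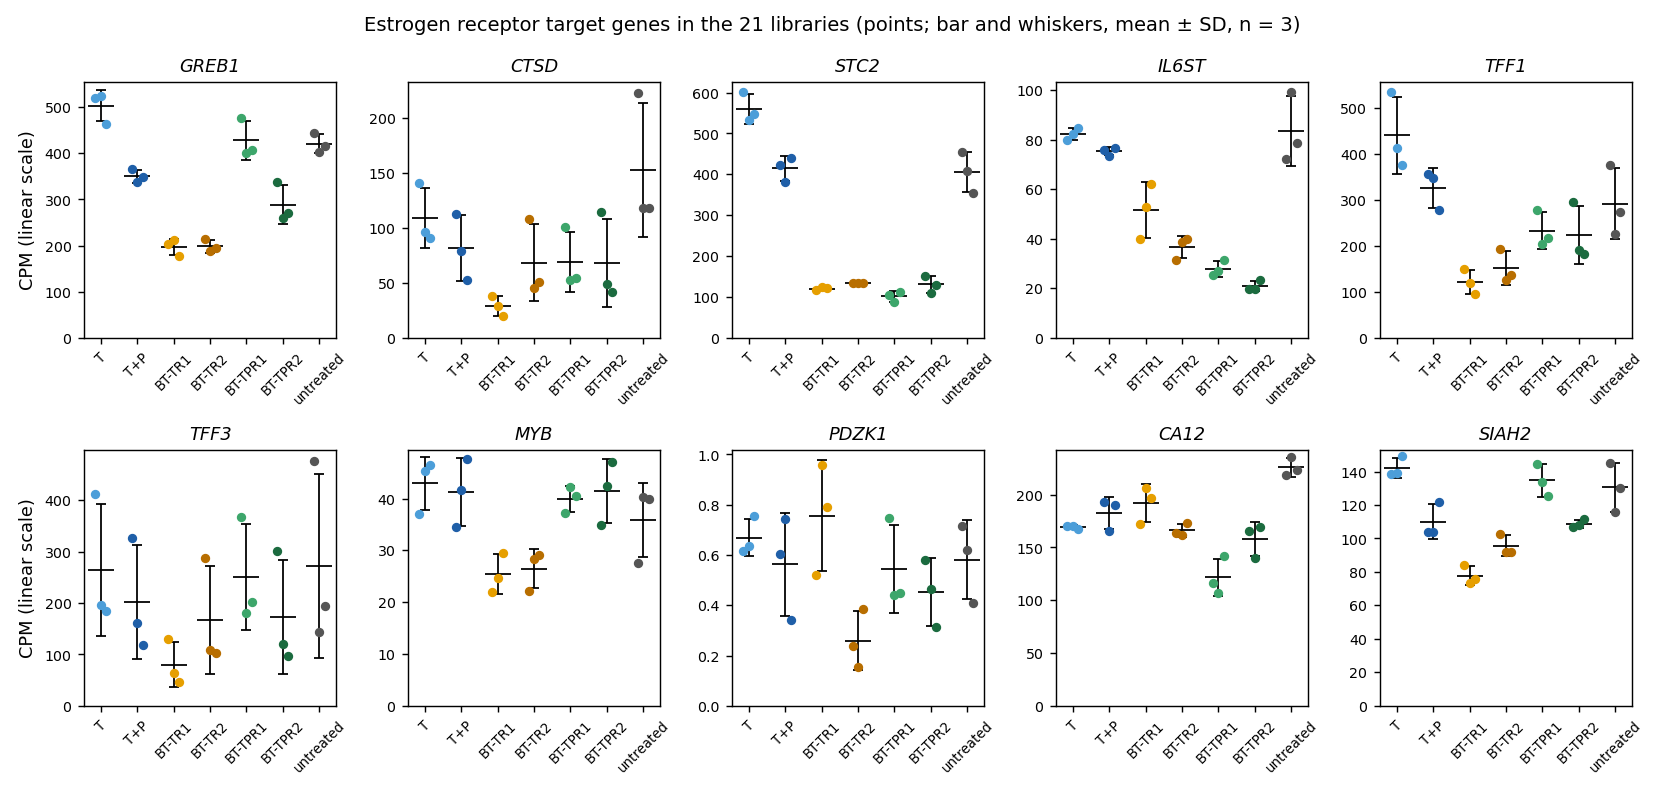
Level of each target gene in every library, in CPM (counts scaled by normalized library size, linear axes from 0), for trastuzumab (T), trastuzumab plus pertuzumab (T+P), the 4 resistant pools and untreated cells. Points are libraries, in replicate order from left to right; the bar is the mean and the whiskers are 1 SD (n = 3). STC2 sits at 87.5 to 152 CPM in the 12 pool libraries and at 355 to 454 CPM in untreated cells, and replicate 1 is the highest CTSD, TFF1 and TFF3 point in 7 of 7 groups.

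**Figure D2:**
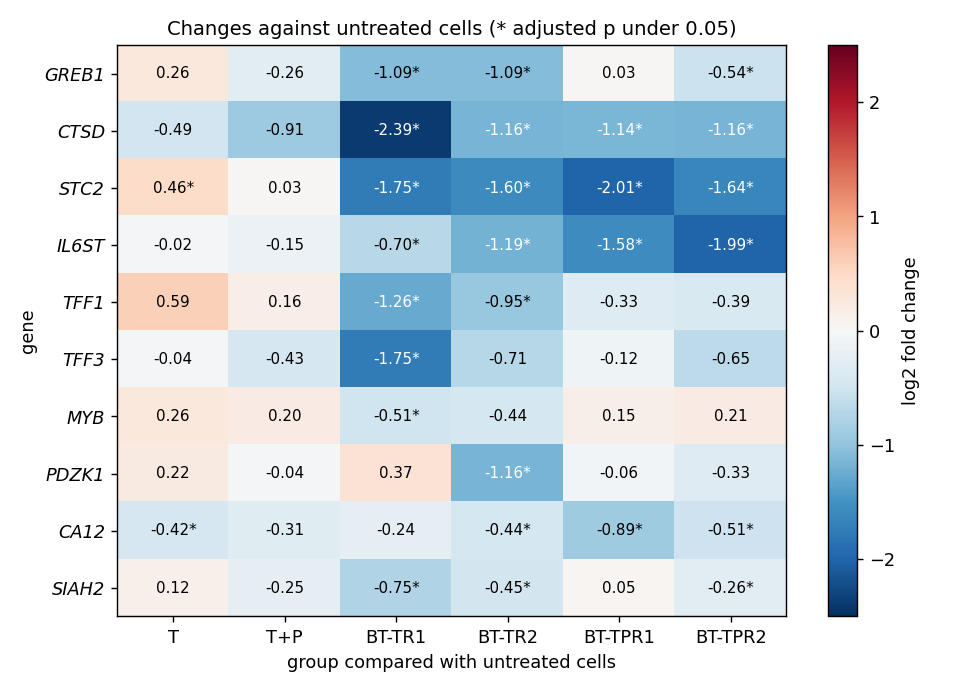
Log2 fold change of each target gene (rows) in 6 groups against untreated cells (columns), from edgeR; blue is lower and red higher, and a star marks an adjusted p under 0.05. All 4 columns of resistant pools carry stars for CTSD, STC2 and IL6ST, and the columns of antibody-treated cells carry stars only for STC2 and CA12, both with trastuzumab.

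STC2 (ENSG00000113739.10, chromosome 5, 173314713 to 173329503, minus strand, hg38) encodes stanniocalcin-2, a secreted glycoprotein induced by estrogen. It had 601, 532 and 546 CPM with trastuzumab and 424, 381 and 440.4 CPM with both antibodies. In the pools it had 116, 125 and 121 CPM in BT-TR1, 135, 134 and 134 CPM in BT-TR2, 104, 87.5 and 112 CPM in BT-TPR1 and 152, 109 and 130.0 CPM in BT-TPR2. Untreated cells had 454, 408 and 355 CPM. Every pool library lay below every library of parental cells, treated or not. STC2 rose with trastuzumab (0.46 ± 0.12 on the log2 scale, SE, adjusted p = 0.0234), and its change with both antibodies was 0.03 (adjusted p = 0.899). It fell in all pools, with log2 fold changes of -1.75 ± 0.12 in BT-TR1 (adjusted p = 4.49e-09), -1.60 ± 0.12 for BT-TR2 (2.34e-08), -2.01 ± 0.12 for BT-TPR1 (1.06e-09) and -1.64 ± 0.12 for BT-TPR2 (1.27e-08). Each fall held under all 32 alternatives. The rise with trastuzumab was lost in a fit of those groups alone (0.48, adjusted p = 0.113) and without untreated replicate 2 (0.48, 0.0605), untreated replicate 3 (0.38, 0.102), trastuzumab replicate 1 (0.42, 0.0706) or trastuzumab replicate 3 (0.48, 0.0612).

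CTSD (ENSG00000117984.12, chromosome 11, 1752752 to 1764573, minus strand) encodes the lysosomal protease cathepsin D. Its level was 140.4, 96.1 and 90.3 CPM with trastuzumab and 112, 79.3 and 52.2 CPM with both antibodies. It stood at 38.0, 28.5 and 20.2 CPM in BT-TR1 cells, 108, 45.5 and 51.0 CPM in BT-TR2, 100.4, 52.9 and 53.9 CPM in BT-TPR1 and 114, 49.3 and 41.2 CPM in BT-TPR2. Untreated cells had 223, 117 and 118 CPM. The pool libraries lay below the untreated libraries without overlap, and replicate 1 was 1.51 to 2.51 times the mean of replicates 2 and 3 in the 7 groups. CTSD has a GC content of 64.0% over its longest annotated transcript. It fell in BT-TR1 (-2.39 ± 0.44, adjusted p = 0.000376). The changes were smaller but called in BT-TR2 (-1.16 ± 0.41, adjusted p = 0.047), BT-TPR1 (-1.14 ± 0.41, 0.0469) and BT-TPR2 (-1.16 ± 0.41, 0.0388). With the GC correction the falls were -1.21, -0.87, -0.87 and -0.79 (adjusted p = 9.95e-06, 0.000254, 0.000252 and 0.000458), so the excess of BT-TR1 over the other pools shrank. With replicates 2 and 3 alone they were -2.27, -1.28, -1.13 and -1.37, all called. The changes with trastuzumab (-0.49, adjusted p = 0.522) and both antibodies (-0.91, 0.158) did not pass. With the block the trastuzumab change did (-0.44, adjusted p = 0.0151). With both antibodies it passed with replicates 2 and 3 alone (-0.83, adjusted p = 0.00129), and stood at -0.40 (0.0715) with the GC correction.

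The CTSD call in BT-TR1 held with any 1 library left out. In the other pools it ended without untreated replicate 1, at -0.78 in BT-TR2, -0.74 in BT-TPR1 and -0.77 in BT-TPR2 (adjusted p = 0.206, 0.227 and 0.198). In BT-TPR2 it also ended without BT-TPR2 replicate 2 or 3 (-0.98 and -0.90, adjusted p = 0.148 and 0.163), moved to -1.75 without BT-TPR2 replicate 1, and was lost in a fit of those groups alone (-1.14, 0.0735). In BT-TR2 it ended without 8 more libraries and in BT-TPR1 without 11 more, all with a fall of the same sign (adjusted p from 0.0525 to 0.17 in BT-TR2 and 0.0502 to 0.162 in BT-TPR1). For BT-TR2 these were untreated replicate 2, trastuzumab replicates 2 and 3, trastuzumab plus pertuzumab replicate 2, BT-TR1 replicate 2, BT-TR2 replicates 2 and 3 and BT-TPR1 replicate 3. For BT-TPR1 they were untreated replicate 2, trastuzumab replicates 1, 2 and 3, trastuzumab plus pertuzumab replicate 2, BT-TR1 replicates 1, 2 and 3, BT-TR2 replicate 3 and BT-TPR1 replicates 2 and 3. A fit of those groups alone ended it in BT-TR2 (-1.17, adjusted p = 0.0592), and library size alone (-0.98, 0.0514) and DESeq2 (-1.14, 0.0504) in BT-TPR1.

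IL6ST (ENSG00000134352.19, chromosome 5, 55935095 to 55994993, minus strand) encodes gp130, the signalling subunit shared by receptors of the interleukin-6 family. It had 79.6, 82.1 and 84.7 CPM with trastuzumab and 75.7, 73.5 and 76.6 CPM with both antibodies. BT-TR1 had 39.9, 52.8 and 62.0 CPM, BT-TR2 31.5, 38.6 and 39.9 CPM, BT-TPR1 25.2, 26.9 and 31.5 CPM and BT-TPR2 19.8, 19.6 and 23.4 CPM. Untreated cells had 72.1, 99.3 and 78.6 CPM. From the lowest mean up, the groups ran BT-TPR2, BT-TPR1, BT-TR2, BT-TR1, both antibodies, trastuzumab and untreated cells. Among neighbours in that order the libraries of BT-TPR1 and BT-TR2 overlapped, as did those of trastuzumab and untreated cells, and no others did. IL6ST fell by differing amounts, in BT-TR1 (-0.70 ± 0.15, adjusted p = 0.00122), BT-TR2 (-1.19 ± 0.15, 1.08e-05), BT-TPR1 (-1.58 ± 0.15, 4.05e-07) and BT-TPR2 (-1.99 ± 0.15, 1.59e-08). Each call held under all 32 alternatives. Its changes with trastuzumab and both antibodies were -0.02 and -0.15 (adjusted p = 0.955 and 0.553).

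The promoters of CTSD and IL6ST are shown because both genes fell in all 4 pools while only CTSD carries the searched letters. The RefSeq table of promoters (GRCh38.p14) held 7 of the 10 genes, and GREB1, TFF1 and TFF3 were not in it. The 250 bases upstream of each start in that table were taken. By the gene positions given for each target, the windows of CTSD, STC2, PDZK1, CA12 and SIAH2 lie inside the gene. They are upstream of the start in that table but not of the outer end of the gene. Both strands were searched for GGTCA, the short core motif of the estrogen receptor, which reads TGACC on the other strand. The full response element was taken as 2 of these facing each other across 3 bases. Core motifs were found in CTSD (3), PDZK1 (1) and CA12 (1) and none in STC2, IL6ST, MYB or SIAH2, so 3 of 7 held one, against 33.1% of all promoters. No full element was found in the 7, against 0.0439% of all promoters. Capitals mark the core motif, and the stretch shown holds 1 of the 3 in CTSD. The others lie in annotated exon bases, which were left out. The stretches are from the minus strand, chr11:1763993-1764177 for CTSD and chr5:55994994-55995166 for IL6ST, and lie outside annotated exons.
CTSD: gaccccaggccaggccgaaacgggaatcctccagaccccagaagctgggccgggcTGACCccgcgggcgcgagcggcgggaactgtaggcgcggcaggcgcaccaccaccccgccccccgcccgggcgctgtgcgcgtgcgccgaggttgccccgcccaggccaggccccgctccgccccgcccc
IL6ST: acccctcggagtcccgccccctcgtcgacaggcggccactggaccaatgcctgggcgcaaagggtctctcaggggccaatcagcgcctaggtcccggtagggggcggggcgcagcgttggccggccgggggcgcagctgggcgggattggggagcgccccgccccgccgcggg

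GREB1 (ENSG00000196208.13, chromosome 2, 11482341 to 11642788, plus strand), a chromatin-bound cofactor of the estrogen receptor and among its most responsive targets in breast cancer cells, separated the pools. It had 521, 525 and 464 CPM with trastuzumab and 365, 338 and 349 CPM with both antibodies. The levels were 203, 212 and 178 CPM in BT-TR1, 213, 187 and 194 CPM in BT-TR2, 477, 400.1 and 408 CPM in BT-TPR1 and 337, 260.0 and 270.2 CPM in BT-TPR2. Untreated cells had 444, 402 and 416 CPM. GREB1 fell by 1.09 in BT-TR1 (SE 0.11, adjusted p = 6.2e-07), by 1.09 in BT-TR2 (SE 0.11, 8.29e-07) and by 0.54 in BT-TPR2 (SE 0.11, 0.000949), under all 32 alternatives. In BT-TPR1 the change was 0.03 ± 0.11 (adjusted p = 0.886), and its libraries overlapped those of untreated cells. The changes with trastuzumab (0.26, adjusted p = 0.16) and both antibodies (-0.26, 0.119) did not pass. The trastuzumab change did so with the block (0.26, adjusted p = 0.0205) and with the GC correction (0.28, 0.0161).

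TFF1 and TFF3 encode trefoil factors, small secreted peptides of mucosal surfaces, and lie close together (ENSG00000160182.2, chromosome 21, 42362282 to 42366594, minus strand; ENSG00000160180.15, chromosome 21, 42311667 to 42315651, minus strand). TFF1 had 534, 411 and 374 CPM with trastuzumab and 356, 346 and 277 CPM with both antibodies. It had 149, 119 and 95.6 CPM in BT-TR1, 193, 125 and 136 CPM in BT-TR2, 278, 204 and 216 CPM in BT-TPR1 and 295, 190.4 and 182 CPM in BT-TPR2. Untreated cells had 376, 226 and 273 CPM. TFF1 fell in BT-TR1 (-1.26 ± 0.23, adjusted p = 0.000393) and BT-TR2 (-0.95 ± 0.23, 0.00547), without overlap and under all 32 alternatives, though the BT-TR1 value was -0.84 (5.14e-06) with the GC correction. The changes in BT-TPR1 (-0.33, adjusted p = 0.303), BT-TPR2 (-0.39, 0.203), with trastuzumab (0.59, 0.126) and with both antibodies (0.16, 0.697) did not pass. With the replicate block the first 3 of these did: -0.31, -0.40 and 0.60 (adjusted p = 0.0154, 0.00248 and 0.000141). With the GC correction TFF1 passed in BT-TPR2 (-0.30, adjusted p = 0.0321), with trastuzumab (0.68, 0.000195) and with both antibodies (0.30, 0.0491). With replicates 2 and 3 alone it passed in BT-TPR2 (-0.41, adjusted p = 0.0147) and with trastuzumab (0.66, 0.00232).

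TFF3 was the most variable of the 10 between replicates, with replicate 1 at 1.93 to 2.82 times the mean of replicates 2 and 3. It had 412, 197 and 184 CPM with trastuzumab and 327, 161 and 118 CPM with both antibodies. It had 131, 64.5 and 45.8 CPM in BT-TR1, 288, 109 and 103 CPM in BT-TR2, 368, 181 and 202 CPM in BT-TPR1 and 301, 121 and 97.3 CPM in BT-TPR2. Untreated cells had 476, 143 and 195 CPM. BT-TR1 lay below all untreated libraries and the other groups overlapped them. TFF3 fell in BT-TR1 (-1.75 ± 0.58, adjusted p = 0.0199), and that call ended without untreated replicate 1 (-1.05, 0.164), BT-TR1 replicate 2 (-1.59, 0.0721) or BT-TR1 replicate 3 (-1.45, 0.0933). With replicates 2 and 3 alone it was -1.62 (adjusted p = 2.19e-06). The other changes lay between -0.71 and -0.04 and did not pass. With the replicate block TFF3 also passed in BT-TR2 (-0.70, adjusted p = 0.000163) and BT-TPR2 (-0.65, 0.000259), and with replicates 2 and 3 alone in the same pools (-0.67 and -0.62, adjusted p = 0.00592 and 0.00643).

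MYB (ENSG00000118513.18, chromosome 6, 135181315 to 135219173, plus strand) encodes a transcription factor of proliferating cells. It had 37.1, 45.3 and 46.5 CPM with trastuzumab and 34.6, 41.6 and 47.7 CPM with both antibodies. It had 22.0, 24.7 and 29.6 CPM in BT-TR1, 22.1, 28.3 and 29.1 CPM in BT-TR2, 37.2, 42.2 and 40.6 CPM in BT-TPR1 and 34.8, 42.4 and 47.1 CPM in BT-TPR2, against 27.6, 40.2 and 39.9 CPM in untreated cells. The means of both TR pools (25.4 and 26.5 CPM) lay below that of untreated cells (35.9 CPM), though the libraries of each overlapped those of untreated cells. The means of the TPR pools (40.0 and 41.4 CPM) did not lie below it. Replicate 1 was the lowest library in 7 of 7 groups. MYB fell in BT-TR1 (-0.51 ± 0.17, adjusted p = 0.0227). That call ended with library size alone (-0.51, 0.0699), in a fit of those groups alone (-0.53, 0.0558) and without untreated replicate 2 (-0.39, 0.107), untreated replicate 3 (-0.42, 0.0822), BT-TR1 replicate 1 (-0.37, 0.128) or BT-TR1 replicate 2 (-0.46, 0.085). In BT-TR2 the change was -0.44 (adjusted p = 0.0622). It passed with the block (-0.43, 0.000272), with the GC correction (-0.42, 0.0114) and with replicates 2 and 3 alone (-0.48, 0.003). The other changes, 0.15 to 0.26, did not pass, and with the block MYB passed with trastuzumab (0.27, adjusted p = 0.0212).

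SIAH2 (ENSG00000181788.3, chromosome 3, 150741127 to 150763477, minus strand) encodes an E3 ubiquitin ligase. It had 138, 139 and 149 CPM with trastuzumab and 104, 104 and 122 CPM with both antibodies. It had 84.3, 73.3 and 75.9 CPM in BT-TR1, 103, 92.1 and 91.8 CPM in BT-TR2, 145, 134 and 125 CPM in BT-TPR1 and 107, 108 and 111 CPM in BT-TPR2, against 145, 116 and 130.4 CPM in untreated cells. SIAH2 fell in BT-TR1 (-0.75 ± 0.10, adjusted p = 1.98e-05) and BT-TR2 (-0.45 ± 0.10, 0.00279). The BT-TR1 call ended with the GC correction (-0.29, 0.0845), and the BT-TR2 call held under all 32 alternatives. The fall in BT-TPR2 (-0.26 ± 0.10, adjusted p = 0.0495) lay at the threshold. It ended without any 1 library other than untreated replicate 2, trastuzumab plus pertuzumab replicate 3 or BT-TPR1 replicate 1 (18 of 21 libraries, -0.32 to -0.16 over all 21). It also ended under 7 of the 11 other alternatives, among them the GC correction (-0.14, 0.397), library size alone (-0.17, 0.323) and replicates 2 and 3 alone (-0.16, 0.195). Without untreated replicate 1 it was -0.16 (0.28). In BT-TPR1 the change was 0.05 (0.767).

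CA12 and PDZK1 act at the cell membrane: CA12 is a carbonic anhydrase that faces outward, and PDZK1 is a scaffold that anchors transporters. CA12 (ENSG00000074410.13, chromosome 15, 63321378 to 63382161, minus strand) had 170.0, 171 and 167 CPM with trastuzumab and 193, 165 and 190.1 CPM with both antibodies. It had 172, 206 and 197 CPM in BT-TR1, 164, 162 and 174 CPM in BT-TR2, 116, 107 and 142 CPM in BT-TPR1 and 166, 139.9 and 169.7 CPM in BT-TPR2, against 218, 236 and 224 CPM in untreated cells. Every other library lay below every untreated library. CA12 fell in BT-TR2 (-0.44 ± 0.11, adjusted p = 0.00577), BT-TPR1 (-0.89 ± 0.11, 7.59e-06) and BT-TPR2 (-0.51 ± 0.11, 0.00143) under all 32 alternatives. With trastuzumab it fell by 0.42 (adjusted p = 0.024), and that call ended without trastuzumab replicate 1, 2 or 3 (-0.40, -0.41 and -0.41, 0.0699, 0.0748 and 0.0867). It likewise ended without untreated replicate 2 or 3 (-0.37 and -0.42, 0.101 and 0.0548), with no filter (-0.41, 0.0716) and in a fit of those groups alone (-0.40, 0.123). The changes with both antibodies (-0.31, 0.0702) and in BT-TR1 (-0.24, 0.0828) did not pass. The BT-TR1 change passed with the block (-0.24, 0.0299), and the change with both antibodies passed with replicates 2 and 3 alone (-0.37, 0.0408) and in DESeq2 (-0.30, 0.0495).

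PDZK1 (ENSG00000174827.13, chromosome 1, 145670852 to 145708148, minus strand) was near the detection limit, with 3 to 16 counts per library, and near-identical copies on chromosome 1 make its counts uncertain. It had 11, 13 and 16 counts with trastuzumab, 11, 15 and 7 with both antibodies, 7, 11 and 6 counts in BT-TR1, 4, 3 and 6 counts in BT-TR2, 13, 7 and 7 counts in BT-TPR1, 10, 10 and 5 counts in BT-TPR2 and 13, 12 and 9 counts in untreated cells. PDZK1 fell in BT-TR2 (-1.16 ± 0.41, adjusted p = 0.0469), and the call ended under 18 of 30 alternatives. Leaving out 1 library ended it for untreated replicates 1 and 2, trastuzumab replicates 1, 2 and 3, trastuzumab plus pertuzumab replicate 1, BT-TR1 replicates 2 and 3, BT-TR2 replicates 1 and 2, BT-TPR1 replicates 2 and 3 and BT-TPR2 replicate 2 (-1.53 to -0.88 over the 21 libraries). DESeq2 gave -1.18 (0.111), limma on the transformed values -0.50 (0.0542) and replicates 2 and 3 alone -0.96 (0.196). Its other changes against untreated cells lay between -0.33 and 0.37.

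**Figure D3:**
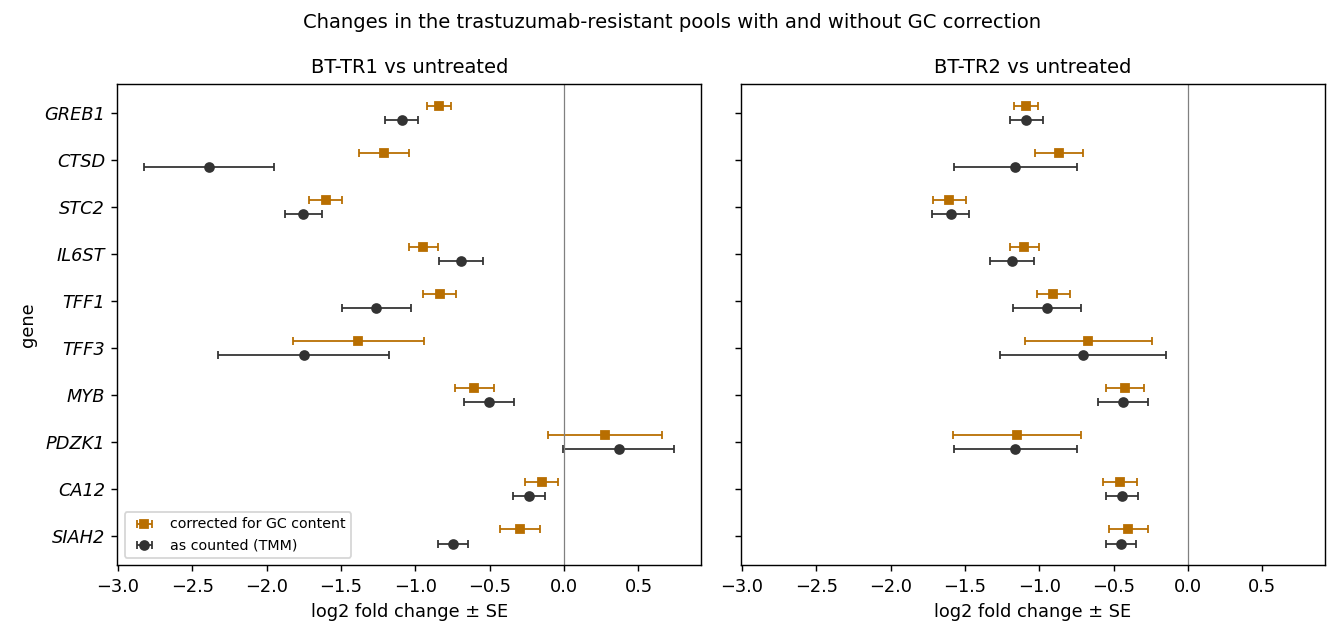
Log2 fold change with its standard error for each target gene in BT-TR1 (left) and BT-TR2 (right) against untreated cells, from the counts as deposited with TMM scaling (circles) and after the GC correction (squares). In BT-TR1 the correction moves CTSD from -2.39 to -1.21 and SIAH2 from -0.75 to -0.29, and in BT-TR2 it moves CTSD from -1.16 to -0.87 and leaves GREB1 at -1.09.

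Adding pertuzumab to trastuzumab was set against trastuzumab alone to see what the second antibody changed. GREB1 fell by 0.52 (SE 0.11, adjusted p = 0.0215), the only call among the 10, where 0.867% of all genes were called. That call ended without trastuzumab replicate 1 or 2 (-0.50 and -0.49, 0.0768 and 0.106), without any 1 library given both antibodies (-0.54, -0.50 and -0.52, 0.0592, 0.136 and 0.0876) and in a fit of these groups alone (-0.52, 0.112). With the block, STC2 (-0.43, adjusted p = 0.0119), TFF1 (-0.41, 0.0265) and SIAH2 (-0.37, 0.0126) were lower too, 4 in all, against 2.2% of all genes. Without it STC2 stood at -0.43 (0.139), TFF1 at -0.43 (1) and SIAH2 at -0.37 (0.111).

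The pools of a class were compared with each other to see how alike independently derived resistant cells were. In BT-TPR2 against BT-TPR1, GREB1 fell by 0.57 (SE 0.11, adjusted p = 0.00427), 1 of the 10 where 3.45% of all genes were called, and it ended in a fit of these groups alone (-0.58, 0.0944) and under no other alternative. With the block 6 of 10 were called, against 12% of all genes, adding IL6ST (-0.42, adjusted p = 0.0185), TFF3 (-0.64, 0.00207) and SIAH2 (-0.31, 0.0171) lower and STC2 (0.36, 0.0169) and CA12 (0.38, 0.00723) higher. Of these, IL6ST also passed with the GC correction (-0.40, adjusted p = 0.0168) and TFF3 with replicates 2 and 3 alone (-0.81, 0.00933). In BT-TR2 against BT-TR1, IL6ST (-0.49 ± 0.15, adjusted p = 0.0324) and PDZK1 (-1.53 ± 0.44, 0.025) were lower and SIAH2 higher (0.30 ± 0.10, 0.0486), 3 of the 10 where 17.7% of all genes were called. CTSD (1.23 ± 0.43, adjusted p = 0.0528) and TFF3 (1.05 ± 0.57, 0.192) had larger differences than IL6ST and SIAH2 and did not pass. Both passed with replicates 2 and 3 alone (0.98 and 0.95, adjusted p = 0.000891 and 0.00106), and with the GC correction they stood at 0.34 (0.206) and 0.71 (0.323). The block called 6 of the 10, against 42.8% of all genes.

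These 3 differences between the TR pools moved with the GC correction, which gave -0.15 for IL6ST (adjusted p = 0.347), -1.42 for PDZK1 (0.0518) and -0.11 for SIAH2 (0.668). The IL6ST call also ended without BT-TR1 replicate 2 or 3 or BT-TR2 replicate 1 (-0.48, -0.35 and -0.39, 0.102, 0.193 and 0.186). The PDZK1 call ended without BT-TR1 replicate 2 or 3 or BT-TR2 replicate 1 or 2 (-1.29, -1.50, -1.49 and -1.26, 0.132, 0.0871, 0.107 and 0.0752), and the SIAH2 call without 17 of 21 libraries (0.24 to 0.34 over all 21). It held only without untreated replicate 1 or 2, trastuzumab plus pertuzumab replicate 3 or BT-TR1 replicate 1.

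Per kilobase of exon, BT-TR1 held TFF1 at 220.0 CPM per kb, TFF3 at 68.7, SIAH2 at 29.7, CA12 at 26.2, STC2 at 19.6, GREB1 at 16.0 and CTSD at 9.25. On the same scale untreated cells held TFF1 at 529 CPM per kb, TFF3 at 232, STC2 at 66.3, SIAH2 at 49.9, CTSD at 48.8, GREB1 at 34.0, CA12 at 30.9, IL6ST at 8.97, MYB at 6.54 and PDZK1 at 0.234. The trefoil factors had the highest levels per length in both groups.

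The receptor gene itself and its partners were described from a list of 16 genes (the estrogen receptors, pioneer factors and coregulators), all tested. ESR1 had 58.7, 57.9 and 55.7 CPM in BT-TPR1 and 38.3, 40.9 and 45.5 CPM in BT-TR1, against 75.3, 81.1 and 88.1 CPM in untreated cells. Its changes were -0.97 in BT-TR1, -0.88 for BT-TR2, -0.50 for BT-TPR1 and -0.83 for BT-TPR2, all called. The list counted 1 higher and 8 lower in BT-TR1, 1 higher and 3 lower for BT-TR2, 1 higher and 5 lower for BT-TPR1, and 1 higher and 5 lower for BT-TPR2, with medians of -0.23, -0.24, -0.14 and -0.19. Over all tested genes 43.6%, 24.9%, 27.3% and 31.6% were called in these pools. With the GC correction the BT-TR1 counts were 2 higher and 4 lower, against 7061 of 17554 genes called. GATA3, a luminal pioneer factor, had 60.4, 59.2 and 58.1 CPM in BT-TR1 against 191, 163 and 180.2 CPM in untreated cells, and fell by 1.59 (adjusted p = 7.49e-09). The membrane estrogen receptor GPER1 fell in BT-TR1 as well (-1.90, adjusted p = 0.00321), by less with the GC correction (-1.04, 0.00342).

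Of 40 other estrogen-induced genes, 39 were tested. With trastuzumab 5 were higher and 0 lower, where 7.48% of all genes were called, and with both antibodies 3 were higher and 6 lower, against 12.4%. These counts moved with the processing. With trastuzumab the block gave 6 higher and 5 lower, against 26.2% of all genes called. The GC correction gave 9 higher and 2 lower, against 2925 of 17554 genes. Replicates 2 and 3 alone gave 7 higher and 3 lower, against 2472 of 17698 genes. With both antibodies the GC correction gave 4 higher and 8 lower, against 4007 of 17554 genes. There, replicates 2 and 3 alone gave 4 higher and 11 lower, against 4008 of 17698 genes. BT-TR1 had 7 higher and 18 lower, BT-TR2 5 higher and 14 lower, BT-TPR1 7 higher and 13 lower and BT-TPR2 8 higher and 17 lower, with list medians of -0.46, -0.32, -0.10 and -0.37, against 43.6%, 24.9%, 27.3% and 31.6% of all genes called. With the GC correction BT-TR1 had 9 higher and 15 lower, BT-TR2 8 and 18, BT-TPR1 9 and 12 and BT-TPR2 9 and 19. Over all 17554 genes that setting called 7061, 6644, 6964 and 7466 in these pools. PGR, the progesterone receptor gene, had 663, 784 and 673 CPM in BT-TPR1 and 155, 196 and 183 CPM in BT-TPR2, against 451, 540.0 and 573 CPM in untreated cells. CXCL12, a chemokine, had 49.2, 46.1 and 52.1 CPM in BT-TPR1 and 22.1, 20.9 and 22.6 CPM in BT-TPR2, against 47.8, 51.0 and 53.1 CPM in untreated cells. Like GREB1, both were lower in BT-TPR2 than in BT-TPR1, with changes of -1.99 for PGR (adjusted p = 8.3e-07) and -1.17 for CXCL12 (6.19e-07). NPY1R, a neuropeptide Y receptor, fell in each pool, with changes of -2.24 in BT-TR1, -2.37 for BT-TR2, -2.03 for BT-TPR1 and -2.27 for BT-TPR2. AGR3, a protein disulfide isomerase family member, had its largest called change in BT-TPR2 (-3.19, adjusted p = 3.56e-09). Its mean was 17.3 CPM in untreated cells. Pool means were 11.4 (BT-TR1), 3.36 (BT-TR2), 3.06 (BT-TPR1) and 1.89 CPM (BT-TPR2). RAB31, a trafficking GTPase, had its largest called change in BT-TR1 (2.17, adjusted p = 3.44e-06). Untreated cells held few RAB31 counts (27, 20 and 19), with a mean of 1.13 CPM. Pool means were 5.11 (BT-TR1), 4.27 (BT-TR2), 2.31 (BT-TPR1) and 3.85 CPM (BT-TPR2).

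**Figure D4:**
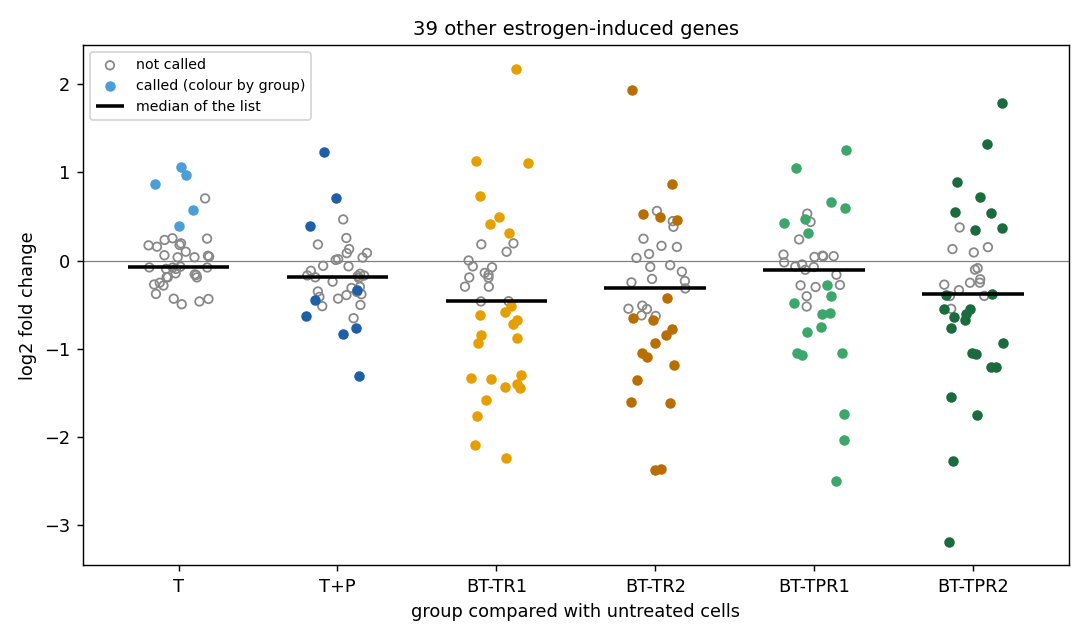
Log2 fold change of 39 other estrogen-induced genes in 6 groups against untreated cells; filled points passed the test (adjusted p under 0.05), open points did not, the bar is the list median and horizontal spread is arbitrary. Called points lie on both sides of 0 in every group except trastuzumab, where the 5 called genes are all higher. With the replicate block 6 were higher and 5 lower there, against 26.2% of all genes called. The medians of the pools run from -0.46 to -0.10.

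Of 9 genes of estrogen synthesis and metabolism 7 were tested. BT-TR1 had 3 higher and 2 lower, BT-TR2 1 higher and 1 lower, BT-TPR1 1 higher and 2 lower and BT-TPR2 3 higher and 0 lower, where 43.6%, 24.9%, 27.3% and 31.6% of all genes were called. STS, which releases estrone from its sulfate, had 146, 132 and 125 CPM with both antibodies against 222, 243 and 218 CPM in untreated cells (-0.76, adjusted p = 0.000141). CYP1B1, an estrogen hydroxylase, had 44.6, 39.9 and 51.0 CPM in BT-TPR2 against 14.8, 21.1 and 16.4 CPM in untreated cells (1.37, 2.17e-05). SULT1E1, which sulfates estrogens, had 19, 31 and 28 counts in BT-TPR2 against 4, 6 and 3 in untreated cells (2.67, 0.000488). Of 6 genes beside TFF1 and TFF3 on chromosome 21, 5 were tested. In BT-TR1 3 were lower, SLC37A1 (-0.92, adjusted p = 0.000579), TFF2 and TMPRSS3, where 22.3% of all genes were lower. With the GC correction 2 were, SLC37A1 at -0.27 (0.0112) and TMPRSS3, against 7061 of 17554 genes called. In BT-TPR2 SLC37A1 (-0.95, 0.000452) and TMPRSS3 were lower, where 16% of all genes were lower. With both antibodies ABCG1 was higher (0.84, 0.0118), 1 of the 5, where 12.4% of all genes were called. TFF2 had 2, 2 and 0 counts in BT-TR1 against 7, 9 and 7 in untreated cells, too few to place its size.

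Genes whose log2 levels followed each target over the 21 libraries were ranked by Pearson's r, as a description with no p, since libraries share groups and composition. The nearest to GREB1 was CXCL12 (r = 0.96), followed by FOSL2 (0.96). The nearest were TMEM132A (0.99) for CTSD, KCNQ5 (0.98) for STC2, MTHFD1 (0.97) for IL6ST, FGD3 (0.96) for TFF1, IL17RC (0.96) for TFF3, PMAIP1 (0.94) for MYB, PDIA3P1 (0.92) for CA12, GATA4 (0.93) for SIAH2 and DDX6 (0.73) for PDZK1. The neighbours of CTSD and TFF3 had GC contents of 59.9% and 63.5%, and that of MYB 37.2%.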

How the data were processed

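The 10 genes and the lists were chosen with earlier results of these data known. Raw read counts per gene were deposited by the authors; the submitters' processing notes name Bowtie2, featureCounts, DESeq2 and build hg38, with no versions, and strandedness was not given in the sources used here. The authors also deposited transformed values on a log2-like scale, used here only in an alternative. Counts were fitted in R 4.3.3 with edgeR 4.0.16: 21 libraries in 1 fit with a term per group, filterByExpr (minimum count 10, minimum total 15), TMM scaling and the quasi-likelihood test with 14 residual degrees of freedom, Benjamini-Hochberg adjusted over 17650 genes. CPM are counts scaled to the normalized library size. Gene positions and GC content, taken over the longest transcript of each gene, came from GENCODE 29 (17554 tested genes had a GC value).

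Alternative fits used no filter, a stricter one (CPM of 1 in 3 libraries and a total of 10), RLE scaling, library size alone, DESeq2 1.42.0, limma 3.58.1 on the transformed values, just the 2 groups of a comparison, a block for replicate number, a GC correction (spline with 5 degrees of freedom), the GC correction and block together, replicates 2 and 3 alone, and each library left out (21 fits). Replicate numbers come from the labels; same-numbered libraries deviated together (r above 0.1 in all 3 pairs) in 7 of 9 comparisons, the exceptions being both antibodies against untreated cells and BT-TR2 against BT-TR1. From each list the 4 genes with the largest called change against untreated cells were named, with ESR1 and PGR always named. Some genes that this rule names are not reported here. Genes most like a target were taken among those with a mean of at least 5 CPM.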

Additional observations from a re-analysis of the deposited data

Results flagged for a closer look

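Between the trastuzumab-resistant pools, 3 targets differed, tested directly as BT-TR2 against BT-TR1. IL6ST differed by -0.49, PDZK1 by -1.53 and SIAH2 by 0.30 on the log2 scale. None of the 3 passed with the GC correction (-0.15, -1.42 and -0.11, adjusted p = 0.347, 0.0518 and 0.668). Between the pools resistant to both antibodies, GREB1 differed by -0.57 (BT-TPR2 against BT-TPR1). Each was picked out because the change against untreated cells differed between pools of 1 class. Single libraries far from the rest of their group were not tested for, since each group had 3 libraries.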

How the results depend on the processing

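The 10 genes gave 2866 values under alternatives, of which 2550 kept their direction and side of the threshold. With the same direction, 134 lost the call and 102 gained one. A further 77 changed direction with no call in either fit, and 3 changed direction with a call in 1 of the fits. Of those 3, GREB1 in BT-TR2 against BT-TR1 was -0.25 (adjusted p = 0.0193) with the GC correction and replicate block. SIAH2 there was -0.11 with the GC correction and -0.11 with both. The cause was not tested. Counts of called targets moved as follows. With trastuzumab (2), only the groups compared gave 0, the replicate block 6, the GC correction 4 and both 5. Over all genes these settings called 381 of 16810, 4629 of 17650, 2925 of 17554 and 5113 of 17554. With both antibodies (0), no filter gave 2, DESeq2 1, the replicate block 5, the GC correction 1, both 6, and replicates 2 and 3 alone 2. These settings called 2604 of 37355 genes, 2543 of 17071, 5750 of 17650, 4007 of 17554, 6009 of 17554 and 4008 of 17698. For both antibodies against trastuzumab (1), DESeq2 gave 3, only the groups compared 0, the replicate block 4 and both corrections 6. These settings called 207 of 17071 genes, 55 of 16803, 388 of 17650 and 493 of 17554. For BT-TR2 against BT-TR1 (3), the strict filter gave 1, only the groups compared 0, the replicate block 6, the GC correction 0, both 5, and replicates 2 and 3 alone 5. These settings called 3361 of 15955 genes, 1274 of 15699, 7555 of 17650, 1698 of 17554, 3828 of 17554 and 5307 of 17698. For BT-TPR2 against BT-TPR1 (1), no filter gave 2, DESeq2 3, only the groups compared 0, the replicate block 6, the GC correction 2, both 6, and replicates 2 and 3 alone 2. They called 619 of 37355 genes, 765 of 17071, 197 of 16104, 2119 of 17650, 1357 of 17554, 2735 of 17554 and 726 of 17698. In the 2 comparisons where same-numbered libraries did not all deviate together, the block added 5 genes with both antibodies, all lower (CTSD -0.90, GREB1 -0.26, CA12 -0.31, TFF3 -0.38 and SIAH2 -0.24, adjusted p = 1.49e-05, 0.0146, 0.011, 0.0291 and 0.0269), against 32.6% of all genes called. In BT-TR2 against BT-TR1 it added CTSD (1.18, adjusted p = 2.2e-06), TFF3 (1.01, 6.37e-06) and TFF1 (0.31, 0.0205), all higher, against 42.8% of all genes. Leaving out 1 library gave 0 to 3 with trastuzumab, 0 to 0 with both antibodies, 6 to 8 in BT-TR1, 6 to 8 in BT-TR2, 3 to 4 in BT-TPR1, 4 to 6 in BT-TPR2, 0 to 1 for both antibodies against trastuzumab, 0 to 4 for BT-TR2 against BT-TR1 and 1 to 3 for BT-TPR2 against BT-TPR1. Library size alone moved the median of all genes by 0.14 in BT-TPR1. With the GC correction the median of all genes against untreated cells was 0.050 with trastuzumab and 0.061 with both antibodies. It was 0.080 in BT-TR1, 0.053 in BT-TR2, 0.046 in BT-TPR1 and 0.056 in BT-TPR2. The GC-corrected changes against untreated cells are therefore not centred on 0. Of 21 libraries, 16 correlated best with their own replicate number. PDZK1 missed the strict filter and had no value there.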
